A study of Mus musculus with 4 samples.

Results

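The 7 enzyme genes Hmgcs1, Mvk, Pmvk, Mvd, Idi1, Fdps and Fdft1 are part of the mevalonate pathway, which carries carbon from acetyl-CoA to squalene. They were picked by gene symbol out of the 23997 genes of the deposited expression table, and 7 of 7 had a row. The table holds RNA sequencing of Tfh cells (follicular helper T cells), a CD4 lineage that drives germinal centre B cell responses, from lymph nodes and spleens of 13-week-old C57BL/6 mice. The groups were wild type (WT, 2 libraries) and Apoe-/- (2 libraries); mice without apolipoprotein E clear cholesterol-rich lipoproteins poorly and accumulate them in plasma. The labels give no other allele, diet or agent for either group, and do not say how the Tfh cells were isolated or whether a library is 1 animal or a pool, so the spread behind each p-value, that between the libraries of a genotype, may be only technical. The comparison asks how Tfh transcripts differ in atherosclerosis-prone mice.

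In this pathway Hmgcs1 condenses acetyl-CoA units into HMG-CoA, the precursor of mevalonate. The kinases Mvk and Pmvk and the decarboxylase Mvd turn mevalonate into isopentenyl diphosphate, Idi1 isomerises it to dimethylallyl diphosphate, Fdps joins these units into farnesyl diphosphate, and Fdft1 (squalene synthase) commits farnesyl diphosphate to sterols. Farnesyl diphosphate also feeds protein prenylation, ubiquinone and dolichol. The genes are classical targets of the transcription factor SREBP2, which is released when sterol in the endoplasmic reticulum is low, and activated T cells draw on the pathway for membrane sterol and for prenylated small GTPases.

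In Apoe-/- Tfh libraries, Idi1 was 2.61-fold and Hmgcs1 1.65-fold below WT by mean FPKM (sequenced fragments per kilobase of a transcript, relative to all fragments mapped in that library), and Mvk was 1.38-fold below, whereas Pmvk and Mvd were 1.27-fold and 1.24-fold above. Fdps and Fdft1, the last enzymes before sterols, lay within 1.07-fold and 1.06-fold of WT. None of these differences passed the test across all genes. At an adjusted p under 0.05 by limma on log2(FPKM + 1), 0 of 7 enzymes were called higher, against 0.948% of the 11187 tested genes (those with a mean FPKM of 1 or more), and 0 of 7 lower, against 0.885%. At an unadjusted p under 0.05, 3 of 7 were lower, against 8.27% of tested genes, and 1 of 7 higher, against 11.6%. Both Apoe-/- libraries lay below both WT libraries for 4 of 7 enzymes, against 22.9% of tested genes, and above them for 2 of 7, against 27.5%. The median difference of the 7 enzymes was -0.09 on the log2(FPKM + 1) scale (-0.07 between the libraries numbered 1 and -0.11 between those numbered 2), beside 0.00 for all tested genes.

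**Figure D1:**
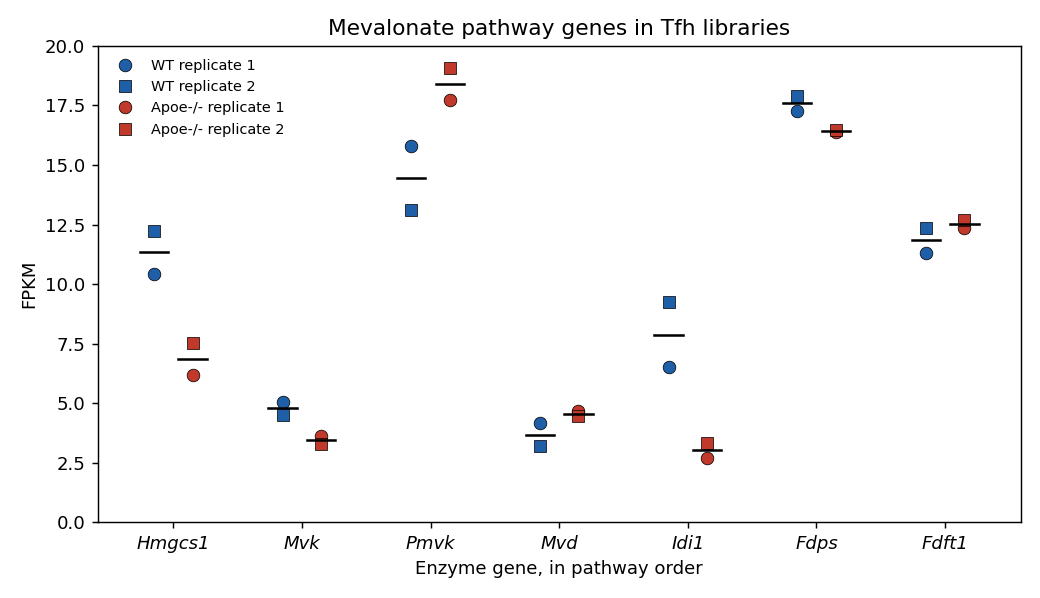
FPKM (vertical axis) of the 7 enzyme genes in pathway order (horizontal axis) by library. Blue marks WT and red Apoe-/-, with a circle for replicate 1, a square for replicate 2 and a line at each group mean. Hmgcs1, Mvk, Idi1 and, by a narrow gap, Fdps have both red points below both blue ones. Pmvk and Mvd have both above, and the Fdft1 points overlap.

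Idi1 showed the widest gap between the genotypes among the 7. The WT libraries had 6.52 and 9.23 FPKM (7.88 ± 1.92, mean ± SD, n = 2) and the Apoe-/- libraries 2.71 and 3.32 FPKM (3.02 ± 0.431, n = 2). Both Apoe-/- libraries were below the lower WT library, and the WT libraries differed from each other more than the Apoe-/- libraries did. The log2 difference was -1.13 ± 0.19 (SE; 95% interval -1.60 to -0.66; limma, p adjusted by Benjamini-Hochberg over the 11187 genes, adjusted p = 0.0602), with -1.02 between the libraries numbered 1 and -1.24 between those numbered 2. Its unadjusted p of 0.00133 ranked 247 of 11187, after the 205 genes called, and its absolute difference exceeded that of 98.8% of tested genes. The call turned with the processing: Idi1 passed in 3 of 9 alternatives that kept all 4 libraries without a block, each a different scaling of the libraries (adjusted p = 0.0380 to 0.0454), while the other 6 gave up to 0.122. Its log2 difference was -1.35 without WT replicate 1 and -0.91 without WT replicate 2, the library in which Idi1 was highest. It was -1.02 without Apoe-/- replicate 1 and -1.24 without Apoe-/- replicate 2. Each of these fits leaves 1 library in a group, so the spread comes from the other group alone.

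Hmgcs1, which makes HMG-CoA in the cytosol, was at 10.4 and 12.2 FPKM in WT and at 6.19 and 7.52 FPKM in Apoe-/- libraries. Its group means were 11.3 ± 1.29 and 6.85 ± 0.938 FPKM, and the groups did not overlap. The log2 difference was -0.65 ± 0.15 SE (95% interval -1.02 to -0.29, limma adjusted p = 0.0994), and it was nearly the same between the libraries numbered 1 (-0.67) and numbered 2 (-0.64). With any 1 library left out, the log2 difference of Hmgcs1 ran from -0.77 to -0.53.

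Idi2, the paralogue of Idi1, averaged 0.0696 FPKM in WT and 0.0395 FPKM in Apoe-/- libraries, under the expression minimum, and was not tested.

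The 3 enzymes between mevalonate and isopentenyl diphosphate did not share a direction. Mvk, mevalonate kinase, was at 5.04 and 4.52 FPKM in WT and at 3.64 and 3.28 FPKM in Apoe-/- libraries (log2 difference -0.37 ± 0.13 SE, 95% interval -0.69 to -0.05, limma adjusted p = 0.200). The groups were apart for Mvk, and the differences between libraries of equal number were -0.38 and -0.37. Pmvk, phosphomevalonate kinase, was at 15.8 and 13.1 FPKM in WT and at 17.7 and 19.1 FPKM in Apoe-/- libraries (log2 difference 0.33 ± 0.13 SE, 95% interval 0.00 to 0.66, limma adjusted p = 0.248). For Pmvk both Apoe-/- libraries were the higher ones, by 0.16 between the libraries numbered 1 and by 0.51 between those numbered 2 on the log2 scale. Mvd, the decarboxylase, was at 4.16 and 3.18 FPKM in WT and at 4.66 and 4.46 FPKM in Apoe-/- libraries (log2 difference 0.26 ± 0.15 SE, 95% interval -0.12 to 0.63, limma adjusted p = 0.404). The Apoe-/- values of Mvd lay close together and above both WT values, and the gap rested largely on WT replicate 2: the difference was 0.13 between the libraries numbered 1, 0.38 between those numbered 2, and 0.11 without WT replicate 2.

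The enzymes that make farnesyl diphosphate and squalene stayed near their WT levels. Fdps was at 17.3 and 17.9 FPKM in WT and at 16.4 and 16.5 FPKM in Apoe-/- libraries. The group means were 17.6 ± 0.434 and 16.4 ± 0.0675 FPKM (SD, n = 2 each) and the groups did not overlap, with a log2 difference of -0.09 ± 0.10 SE (limma adjusted p = 0.652). Its 95% interval of -0.35 to 0.16 leaves out a change as large as the point estimate of Idi1 or Hmgcs1. Fdft1 was at 11.3 and 12.4 FPKM in WT and at 12.4 and 12.7 FPKM in Apoe-/- libraries, where the groups overlapped (log2 difference 0.08 ± 0.11 SE, 95% interval -0.20 to 0.36, limma adjusted p = 0.736).

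Some of these values may hold reads of other genes, since no source used here states the strand setting or the treatment of multiply mapped reads. In GENCODE M21 (GRCm38, the assembly also called mm10) Fdft1 shares 774 exonic bases with Ctsb, the cathepsin B gene on the opposite strand, which was at 188 and 191 FPKM in WT and at 196 and 203 FPKM in Apoe-/- libraries. Transcripts of other genes that matched a member at 95% identity or more over at least 200 bases included 4 processed pseudogenes of Fdps (identity 96.1% to 98.9%), 2 of Idi1 (Gm13502, identical over 684 bases, and Gm35570 at 97.7%) and 1 of Fdft1 (Gm6781 at 97.4%). None of these 7 pseudogenes has a row in the table. Hmgcs1, Idi1 and Fdps also overlap annotated genes without a row of their own, by 557, 323 and 1124 exonic bases. Their part in the values was not tested.

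Per transcript length, the order of the enzymes differed between the genotypes. In WT the mean levels descended from Fdps (17.6 FPKM) through Pmvk (14.5), Fdft1 (11.8), Hmgcs1 (11.3), Idi1 (7.88) and Mvk (4.78) to Mvd (3.67). Of these neighbours, Fdft1 and Hmgcs1 overlapped between the WT libraries, and the others did not. In Apoe-/- libraries Pmvk (18.4) was above Fdps (16.4), and Idi1 (3.02) was last, after Fdft1 (12.5), Hmgcs1 (6.85), Mvd (4.56) and Mvk (3.46), with Mvk and Idi1 overlapping. The 7 genes were of low to middling abundance, at percentiles 18.0 to 53.3 of mean level among tested genes.

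Ratios of FPKM within a library do not depend on how the libraries were scaled to each other. The ratio of Idi1 to Fdps, consecutive steps, was 0.377 and 0.516 in WT, against 0.166 and 0.202 in Apoe-/- libraries. That of Hmgcs1 to Fdft1, the first and the last of the 7, was 0.922 and 0.990 in WT and 0.501 and 0.591 in Apoe-/- libraries. That of Mvk to Pmvk was 0.319 and 0.345 in WT and 0.205 and 0.172 in Apoe-/- libraries. In each of these 3 ratios both Apoe-/- values were below both WT values. The same held for Fdps to Fdft1, at 1.53 and 1.446 in WT and 1.324 and 1.295 in Apoe-/- libraries. It also held for Idi1 to Mvd, Idi1 to Hmgcs1 and Hmgcs1 to Fdps. The ratio of Mvd to Pmvk, in contrast, overlapped, at 0.264 and 0.242 in WT and 0.263 and 0.234 in Apoe-/- libraries. No test was run on the ratios.

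The summed FPKM of the 7 genes was 70.5 and 72.6 in WT and 63.6 and 66.8 in Apoe-/- libraries, so both Apoe-/- sums were the lower ones. Idi1 supplied 9.25% and 12.7% of this sum in WT and 4.26% and 4.97% in Apoe-/- libraries. Hmgcs1 supplied 14.8% and 16.9% in WT and 9.73% and 11.3% in Apoe-/- libraries. Pmvk went the other way, from 22.4% and 18.1% to 27.8% and 28.5%, while Fdps held 24.5% to 25.7% in all 4 libraries.

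**Figure D2:**
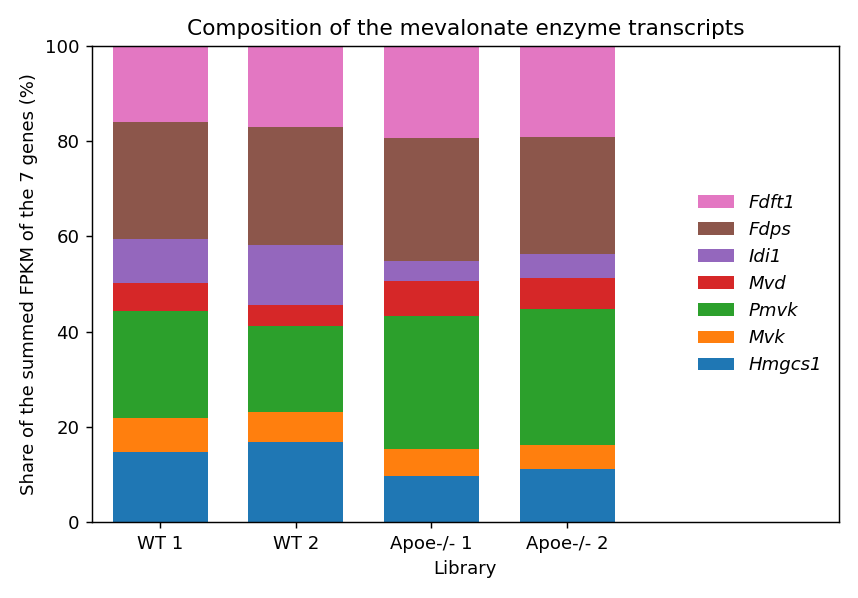
Share of the summed FPKM of the 7 genes (vertical axis, percent) that each gene supplied in each library (horizontal axis), stacked in pathway order from the bottom. The Idi1 band is 9.25% and 12.7% in WT, against 4.26% and 4.97% in Apoe-/- libraries, and the Pmvk band is wider in the latter.

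RefSeq promoter windows were matched by symbol for 5 of the 7 genes, with none for Fdps and Fdft1. The 250 bases before the RefSeq start are printed for Hmgcs1 and Idi1, the genes with the widest gaps below WT, for Mvk, also below, and for Pmvk, which was above (GRCm38.p6, 5′ to 3′ on the gene's strand, which is the plus strand for these 4). They lie at chr13:119690101-119690350 (Hmgcs1), chr5:114444019-114444268 (Mvk), chr3:89454291-89454540 (Pmvk, at the first of its 2 listed starts) and chr13:8885356-8885605 (Idi1). Capitals mark CACNCCAC, a form of the sterol regulatory element that SREBP proteins bind, and CCAAT, the box bound by NF-Y, a frequent partner of SREBP, each on either strand (CCAAT on the minus strand reads ATTGG).
Hmgcs1: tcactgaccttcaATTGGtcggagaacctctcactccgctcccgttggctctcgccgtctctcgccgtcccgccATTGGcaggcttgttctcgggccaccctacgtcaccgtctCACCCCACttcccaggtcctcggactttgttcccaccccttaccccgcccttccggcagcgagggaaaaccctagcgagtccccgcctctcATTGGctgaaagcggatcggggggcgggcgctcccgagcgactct
Mvk: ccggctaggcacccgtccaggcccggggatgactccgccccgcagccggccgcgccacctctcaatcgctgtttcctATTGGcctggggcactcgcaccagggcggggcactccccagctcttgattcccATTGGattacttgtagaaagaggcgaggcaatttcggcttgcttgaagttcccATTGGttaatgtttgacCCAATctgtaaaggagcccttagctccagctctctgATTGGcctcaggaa
Pmvk: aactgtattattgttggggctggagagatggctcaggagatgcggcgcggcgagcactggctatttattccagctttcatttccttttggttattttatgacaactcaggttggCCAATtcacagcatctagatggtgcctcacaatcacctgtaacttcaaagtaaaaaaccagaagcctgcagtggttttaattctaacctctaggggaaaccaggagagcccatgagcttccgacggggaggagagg
Idi1: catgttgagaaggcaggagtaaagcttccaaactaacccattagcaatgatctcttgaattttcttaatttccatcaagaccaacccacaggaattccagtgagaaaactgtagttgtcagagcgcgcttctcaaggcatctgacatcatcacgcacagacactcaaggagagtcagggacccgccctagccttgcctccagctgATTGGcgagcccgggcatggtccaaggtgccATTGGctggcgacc

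The window of Hmgcs1 held 1 match to CACNCCAC, with the letters CACCCCAC at -136 to -129 from the start, and 3 CCAAT boxes. CACNCCAC was found on either strand in 5.29% of all 32851 RefSeq promoter windows of this length, and its stricter form CACCCCAC, a subset of these matches, in 2.58%. The Hmgcs1 match overlaps no CCAAT box. No match lay in the windows of Mvk, Pmvk, Mvd or Idi1. CCAAT occurred 5 times for Mvk, 2 times for Mvd, 2 times for Idi1 and 1 time at the first Pmvk start, and not at the second, against 33.8% of windows with at least 1. GGGCGG, the GC box, occurred in the windows of Hmgcs1 (2), Mvk (2), Mvd (1) and Idi1 (1) but at neither Pmvk start, against 32.7% of windows. The 2 Pmvk windows (89454291 to 89454540 and 89459321 to 89459570 on chromosome 3) do not adjoin, and the bases between them were not searched. The second lies inside the annotated span of Pmvk itself (89454541 to 89469013). Whether either window is an active promoter was not tested, so no contrast between Pmvk and the other genes is drawn. Mvd, above WT by mean as Pmvk was, held CCAAT and GGGCGG. These letter matches describe the windows only.

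By position none of the 7 genes lies on chromosome 7, where the Apoe locus is. Hmgcs1 (119690379 to 119708260) and Idi1 (8885501 to 8892451) are on chromosome 13 of GRCm38, 110.8 Mb apart. Fdps (89093588 to 89101959) and Pmvk (89454541 to 89469013) are 0.353 Mb apart on chromosome 3. Mvk is at 114444269 to 114460591 on chromosome 5, Mvd at 122433601 to 122443422 on chromosome 8 and Fdft1 at 63145150 to 63179578 on chromosome 14.

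Acetyl-CoA acetyltransferase 2 (Acat2), which supplies the substrate of Hmgcs1, averaged 5.64 FPKM in WT and 5.91 FPKM in Apoe-/- libraries (log2 difference 0.05, limma adjusted p = 0.874). Acat1, a mitochondrial acetyl-CoA acetyltransferase, averaged 18.2 and 16.7 FPKM (log2 difference -0.11, limma adjusted p = 0.691).

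After squalene, 2 of 12 tested genes fell and 0 rose, against 0.885% and 0.948% of all tested genes. The list median was -0.24 (-0.31 and -0.19 within numbers 1 and 2), beside -0.09 for the 7 enzymes before squalene. Sqle, squalene epoxidase, went from 3.49 and 4.39 FPKM to 1.50 and 1.06 FPKM (log2 difference -1.12 ± 0.17 SE, limma adjusted p = 0.0494). Cyp51, the lanosterol demethylase, went from 12.3 and 16.4 FPKM to 4.30 and 5.25 FPKM (log2 difference -1.40 ± 0.17 SE, limma adjusted p = 0.0325). Msmo1, Sc5d and Dhcr7 had log2 differences of -0.33, -0.27 and -0.25 and did not pass. The point estimate of Idi1 was close to that of Sqle, whereas Fdps and Fdft1, directly before Sqle, had intervals that include 0. Whether one gene's difference exceeds another's was not tested. The Sqle call ended with a pseudocount of 0.1, with no FPKM filter and without WT replicate 2 (highest adjusted p = 0.112), and the Cyp51 call with no filter (0.0858).

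**Figure D3:**
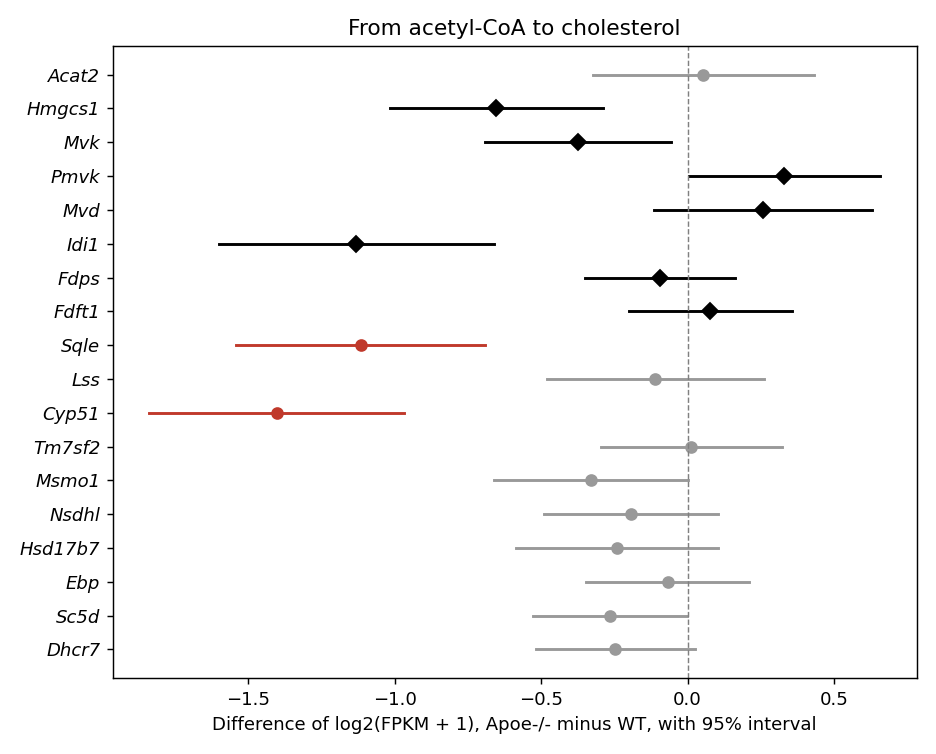
Difference of log2(FPKM + 1), Apoe-/- minus WT, with its 95% interval (horizontal axis) for genes from acetyl-CoA to cholesterol in pathway order from the top. Black diamonds are the 7 enzymes, grey circles other steps that did not pass, and red circles the genes that passed, Sqle and Cyp51; the Idi1 interval runs from -1.60 to -0.66 and that of Fdps from -0.35 to 0.16.

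The branch that uses isopentenyl, farnesyl and geranylgeranyl diphosphate for prenylation, dolichol, ubiquinone and tRNA had 0 of 21 tested genes passing in either direction (median -0.04). The shares over all tested genes were 0.948% higher and 0.885% lower. The 4 with the widest differences were the Rab escort genes Chml (-0.34) and Chm (-0.24), the farnesyltransferase subunit Fnta (-0.27) and the Rab prenylation subunit Rabggta (0.27), with limma adjusted p = 0.460, 0.653, 0.351 and 0.275. Ggps1, which makes geranylgeranyl diphosphate from the product of Fdps, had means of 20.7 and 19.7 FPKM.

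Among 16 tested genes of sterol sensing and SREBP targets, 2 fell and 0 rose, against 0.885% and 0.948% of all tested genes. The list median was -0.04 (-0.15 and 0.03 within numbers 1 and 2). One of the genes that fell, Insig1, which retains the SREBP complex in the endoplasmic reticulum, went from 44.3 and 45.5 FPKM to 23.2 and 21.8 FPKM (log2 difference -0.97 ± 0.10 SE, limma adjusted p = 0.0198). That call ended without either WT library. Srebf2, the gene of SREBP2, had means of 41.8 and 30.5 FPKM without overlap of the groups (log2 difference -0.44, limma adjusted p = 0.126). On the export side 1 of 11 tested genes rose, against 0.948% of all tested genes, and 0 fell, against 0.885% (median 0.25). That gene, the cholesterol exporter Abca1, went from 4.13 and 4.53 FPKM to 14.5 and 15.6 FPKM (log2 difference 1.59 ± 0.12 SE, limma adjusted p = 0.0107). Fatty acid synthesis genes, driven mostly by SREBP1, had 0 of 6 tested passing (median 0.09). Acss2, which makes acetyl-CoA from acetate, had the widest difference among them (0.36, limma adjusted p = 0.168).

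Over the 4 libraries, the 5 other tested genes whose centred log2(FPKM + 1) lay nearest to the mean profile of the 7 enzymes, among them Ttk, Capn10, Etv3 and Htt, were at Euclidean distances of 0.0138 to 0.0258. That mean profile averages over genes whose differences had opposite signs.

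Lists of proliferation genes and of cell type markers were read beside these values. Over all tested genes, 0.948% were called higher and 0.885% lower. Of 14 proliferation genes, 0 passed and 14 had a negative difference (median -0.20, beside 0.00 for all tested genes). Their summed FPKM was 652 and 721 in WT and 519 and 594 in Apoe-/- libraries. In these bulk libraries fewer cells of a type and less RNA per cell cannot be told apart. Markers of T helper and Tfh cells, which carry the labelled identity, summed to 1675 and 1685 FPKM in WT and 1699 and 1684 FPKM in Apoe-/- libraries, with 0 of 9 passing. These sums hide opposite signs, since 6 of the 9 differences were above 0 and 3 below. The widest were Pdcd1 (log2 difference -0.50, limma adjusted p = 0.0887) and Cxcr5 (0.33, limma adjusted p = 0.153). Of 10 B cell markers 4 fell, among them Cd22, Fcer2a and Cr2, and the list summed to 342 and 337 FPKM in WT against 209 and 199 FPKM. The 8 neutrophil markers summed to 8.85 and 6.91 FPKM in WT against 49.4 and 65.9 FPKM, with Elane and Camp listed at 0 in every library. Mpo and Ngp reached at most 0.0209 and 0.0452 FPKM. Most of the Apoe-/- sum was S100a8 (20.8 and 29.4 FPKM) and S100a9 (21.6 and 28.0 FPKM). Of these 8, S100a8, S100a9 and Csf3r rose; Retnlg, also called, reached the expression minimum only through the Apoe-/- libraries (0.124 and 0.297 against 3.67 and 4.81 FPKM), so its call is no independent support. Of 5 tested dendritic cell markers Itgax rose (3.84 and 3.49 against 9.12 and 9.15 FPKM). All 7 dendritic cell markers summed to 9.82 and 8.99 against 19.6 and 21.0 FPKM. The 10 macrophage and monocyte markers summed to 272 and 238 against 335 and 295 FPKM, with 7 differences above 0 and 3 below. Of these 10 only Vsig4 was called, and it too reached the minimum only through the Apoe-/- libraries (0.148 and 0 against 2.25 and 4.72 FPKM). The calls of Fcer2a, S100a8, S100a9 and Retnlg held in every alternative that tested them, and each of the other marker calls named here ended in 1 to 3 alternatives. The CD8 T and NK list summed to 21.7 and 22.0 against 28.6 and 33.4 FPKM with 0 of 7 passing, and the erythroid list to 39.3 and 44.3 against 8.96 and 24.6 FPKM with 0 of 2 passing. Germinal centre B cell, plasma cell, platelet and stromal lists had overlapping or nearly equal sums in the 2 genotypes. Among plasma cell genes Igj rose (10.2 to 27.2 FPKM by the means). Xbp1 was lower without passing (56.7 to 40.4 FPKM, limma adjusted p = 0.102) and Prdm1 nearly level (6.20 to 6.23 FPKM). Sdc1 and Tnfrsf17 were under the expression minimum. The part of other cells and of cycling in the Idi1, Hmgcs1 and Mvk values was not tested. Apoe itself was at 145 and 128 FPKM in WT and at 5.09 and 5.21 FPKM in Apoe-/- libraries, lower in both libraries labelled as lacking it.

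**Figure D4:**
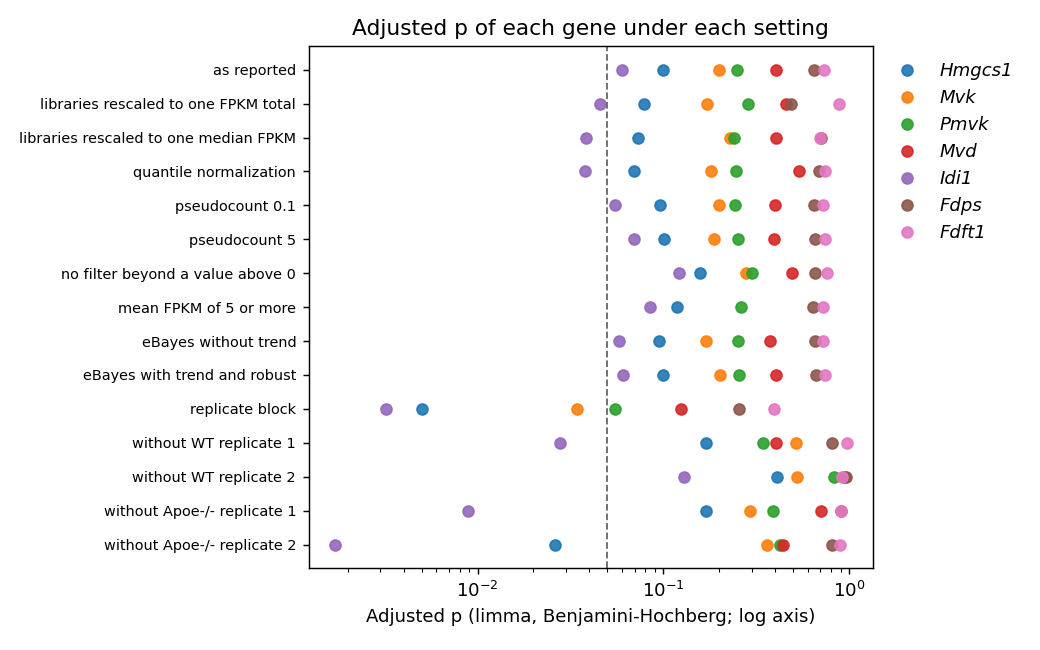
Adjusted p (horizontal axis, log scale, dashed line at 0.05) of each of the 7 genes under the reported setting and 14 alternatives (vertical axis). In the settings without a library, the spread comes from the group that keeps both of its libraries. Idi1 has the lowest adjusted p in every setting shown and lies left of the line in 7 of the 14 alternatives, Hmgcs1 in 2 and Mvk in 1.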

How the data were processed

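RNA sequencing values were available for 2 WT and 2 Apoe-/- Tfh libraries as FPKM per gene symbol, deposited by the authors. Per the submitters' processing notes the build was mm10, and the tools listed, in no stated order, were Cuffdiff 2.2.0, TopHat2 2.0.13 and CASAVA 1.8.2; for the annotation, strand setting and filters, the sources used here give nothing. Read depth is unknown: totals ran from 522371 to 551289 FPKM, and whole reads could not be recovered from low values (0.001 to 0.15 FPKM), although libraries of equal number shared a modal ratio there (16.3% and 12.4% of genes, within 0.04 on the log2 scale, against 2.74% to 3.73% in other pairs). Differences within each number are therefore shown. In 2 rows a space replaced a tab and was split.

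Values were analysed as log2(FPKM + 1), with a pseudocount of 1, for the 11187 genes averaging at least 1 FPKM, by limma 3.58.1 in R 4.3.3 (two-sided, eBayes with trend, Benjamini-Hochberg over all tested genes, threshold 0.05) without a block, since the labels tie no numbers to an animal or day. That scale understates changes of low genes; folds are ratios of mean FPKM. The procedure was tested on simulated data. Named genes were the 7 members and, per list, those that passed and up to 4 with the widest differences. Members, lists and motifs were chosen with earlier results of these data known. Transcripts were aligned with BLAST 2.17.0. A few genes of the lists are counted but not reported by name here.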

Additional observations from a re-analysis of the deposited data

How the results depend on the processing

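Over 14 alternatives, each of the 7 enzymes kept the sign of its difference (96 of 96 values, since Mvk and Mvd fall under a mean FPKM of 5 or more). Much of this was fixed beforehand. The filters, eBayes options and block leave a difference itself unchanged, and omitting 1 library cannot reverse groups that do not overlap. With all libraries and no block the number of enzymes called lower was 1 instead of 0 (Idi1) with libraries rescaled to one FPKM total, rescaled to one median or quantile normalized, and 0 with other pseudocounts, filters or eBayes options. With the replicate block it was 3 (Idi1, Hmgcs1 and Mvk; adjusted p = 0.00319, 0.00505 and 0.0345), and 1908 genes were called higher and 1776 lower; the labels do not pair the libraries, and deviations of equal numbers correlated at 0.21 across genes. With 1 library left out, 0 to 2 enzymes were called lower, and 54 to 317 genes higher and 61 to 301 lower, the lone library being taken to vary as the other group does. No enzyme was called higher in any of the 14. Without a filter 35 genes were called higher and 41 lower, and with a mean FPKM of 5 or more 51 higher, against 106 and 99 as reported. The median of the enzymes was -0.14 with one FPKM total, a setting that moved the median of all genes to -0.04. The cause of these changes was not tested. With 2 libraries a group, an enzyme that did not pass may still differ.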
